A study of Homo sapiens with 8 samples.

Results

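Of the 20045 genes with a named probe on the arrays, 43 carry a symbol of the tumour necrosis factor (TNF) superfamily or of its receptors. These were all genes whose symbol begins with TNFSF or TNFRSF, together with TNF, LTA, LTB, LTBR, CD27, CD70, CD40, FAS and FASLG, a rule that goes by symbol alone. They comprise 16 ligands, 6 receptors with a death domain, 4 decoy receptors, 15 receptors that bind TRAF adaptors without a death domain, and 2 further transcripts that the symbols admit, the antisense RNA TNFRSF14-AS1 and the readthrough transcript TNFSF12-TNFSF13. CD40LG, the ligand of CD40, was not analysed here.

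RNA of 8 wells of A2058, a human line derived from metastatic melanoma, had been measured on Illumina HT-12 arrays, 1 for each well. In 4 wells the cells received TGFβ1 and in the other 4 control vehicle, and all 8 had been transfected with empty vector using Lipofectamine2000, so that the vehicle wells carry the plasmid too. Treatment lasted 24 h in serum-free media. Doses of 5 and 10 ng/ml TGFβ1 are named in the methods, and which of them these wells received is not given in the sources used here. The wells shared their passage and plating day, so the p-values below measure the spread between parallel wells of 1 cell line. The deposited values are log2 values centred on 0 for every probe, so they show differences between arrays and keep neither signal level nor background. A member that did not differ may thus be expressed evenly or not at all, and the melanocyte markers of the labelled line could not be checked for presence.

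TNF superfamily ligands are mostly membrane-bound trimers that can be released by proteases, and they signal by clustering receptors of the TNFRSF family on the same or a neighbouring cell. Receptors with a death domain recruit adaptors such as FADD and TRADD and can start caspase cascades. The others recruit TRAF proteins, which lead to NF-κB and MAP kinase signalling, while decoy receptors bind ligand without passing on a full signal. Many ligands are made by leukocytes, and tumour cells, melanoma included, carry several of the receptors.

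Between TGFβ1-treated and vehicle cells, limma called 4 of the 43 members (adjusted p under 0.05 over all genes), and all 4 are receptors. TNFRSF12A and TNFRSF21 were higher, and TNFRSF14 and LTBR were lower. Of all genes tested, 5.70% were called at this threshold, 3.03% as higher and 2.67% as lower, beside 9.30% of the members. In RNA of a whole well, fewer cells of a kind and less RNA per cell cannot be told apart. None of the 16 ligands was called by limma or by SAM. The study used SAM on probes, and here it was coded anew and run on gene values. In limma 1 ligand, LTA, had an unadjusted p under 0.05, a threshold that 15.6% of all genes passed. The median log2 change (TGFβ1 minus vehicle) was −0.0010 over the 43 members and −0.0013 over all genes, and the median size of the change without its sign was 0.053 and 0.064.

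**Figure D1:**
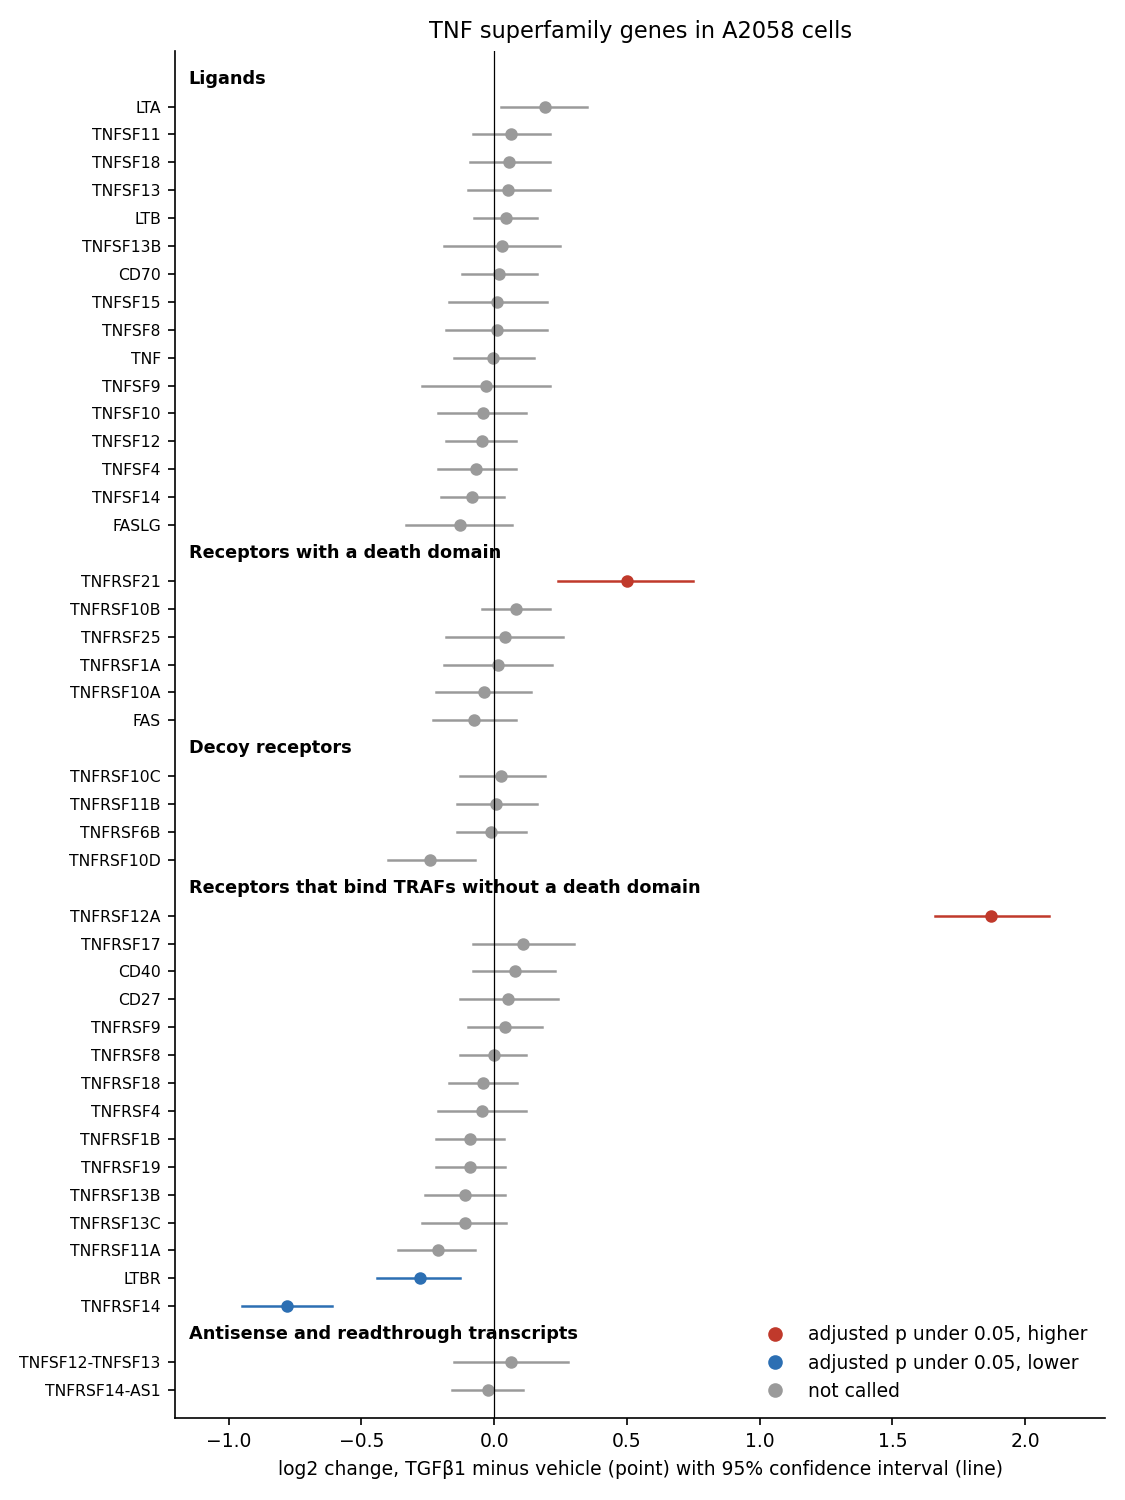
The log2 change (TGFβ1 minus vehicle, horizontal axis) of each of the 43 members, grouped by role, with its 95% confidence interval from limma. TNFRSF12A at 1.87 lies apart from every other member, the intervals of TNFRSF21, TNFRSF14 and LTBR leave out 0, as do those of the uncalled LTA, TNFRSF11A and TNFRSF10D, and the 16 ligands lie between −0.13 and 0.19.

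TNFRSF12A, also known as Fn14, is the receptor of the cytokine TWEAK and is known as a gene that growth factors induce and that wounded tissues switch on. Its log2 values were 1.07, 0.77, 0.97 and 0.94 on the TGFβ1 arrays, against −1.25, −0.81, −0.91 and −0.78 on the vehicle arrays. The 2 groups were far apart, with the lowest TGFβ1 array more than 1 log2 unit above the highest vehicle array. This is a mean of 0.94 ± 0.12 under TGFβ1 and −0.94 ± 0.22 under vehicle (SD, n = 4 each), a log2 change of 1.87 (SE 0.099, 95% confidence interval 1.66 to 2.09, adjusted p = 6.5e-08 in limma), or 3.67-fold higher. The call was kept in every alternative run, including SAM and the removal of any 1 array.

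The ligand of TNFRSF12A is TWEAK, encoded by TNFSF12. TNFSF12 was at −0.10, −0.045, 0.061 and −0.0079 on the TGFβ1 arrays and at 0.10, −0.0013, −0.022 and 0.015 on the vehicle arrays, and the groups overlap. Its log2 change was −0.046 (SE 0.060, 95% interval −0.18 to 0.084, adjusted p = 0.83 in limma). TNFSF12 was not called in any alternative run. The 2 probes of TNFSF12 gave −0.11 and 0.016, neither called over all probes. The readthrough transcript TNFSF12-TNFSF13, which joins TWEAK to the neighbouring ligand gene APRIL, was at 0.064 (95% interval −0.15 to 0.28), and signal from these overlapping transcripts cannot be told apart.

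TNFRSF14 (HVEM), a receptor for LIGHT and lymphotoxin α that also engages the lymphocyte inhibitor BTLA, was the member with the largest fall. The TGFβ1 arrays had −0.28, −0.28, −0.64 and −0.36, against 0.45, 0.38, 0.39 and 0.33 on the vehicle arrays. The vehicle wells lay close to one another and the TGFβ1 wells all lay below them, replicate 3 lowest. The means were −0.39 ± 0.17 under TGFβ1 and 0.39 ± 0.052 under vehicle (SD, n = 4 each), and the log2 change was −0.78 (SE 0.080, 95% interval −0.95 to −0.61, adjusted p = 3.1e-05 in limma). The level under vehicle was 1.71 times that under TGFβ1. This call, too, was kept in every alternative run. All runs read the same 1 probe, which is listed on the strand opposite to the gene, as described below.

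LTBR, the lymphotoxin β receptor, shares the ligand LIGHT with TNFRSF14 and is expressed by stromal and epithelial cells rather than by lymphocytes. Its values were −0.019, −0.33, −0.16 and −0.068 under TGFβ1 and 0.12, 0.19, 0.20 and 0.062 under vehicle. The groups did not overlap, but the highest TGFβ1 array and the lowest vehicle array were only a small step apart. The log2 change was −0.28 (SE 0.073, 95% interval −0.44 to −0.13, adjusted p = 0.034 in limma). This call is near the threshold. SAM did not make it, it missed the threshold when adjusted over all probes (0.067), and it ended when any 1 of 5 arrays was left out, vehicle replicates 1, 2 or 3 or TGFβ1 replicates 2 or 3, with changes from −0.29 to −0.22 over these omissions.

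TNFRSF21, also called DR6, is a death domain receptor best known from neurons and T cells. The TGFβ1 arrays had 0.22, 0.12, 0.18 and 0.47 and the vehicle arrays −0.090, −0.084, −0.16 and −0.65. All TGFβ1 wells lay above all vehicle wells, with TGFβ1 replicate 4 highest and vehicle replicate 4 far below the other 3. The log2 change was 0.50 (SE 0.12, 95% interval 0.24 to 0.75, adjusted p = 0.023 in limma). SAM did not call it, and the call ended without TGFβ1 replicate 1 (0.51, adjusted p = 0.051 in limma) or without TGFβ1 replicate 4 (0.42, adjusted p = 0.056). Without vehicle replicate 4 the change was 0.36 and the gene still passed.

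**Figure D2:**
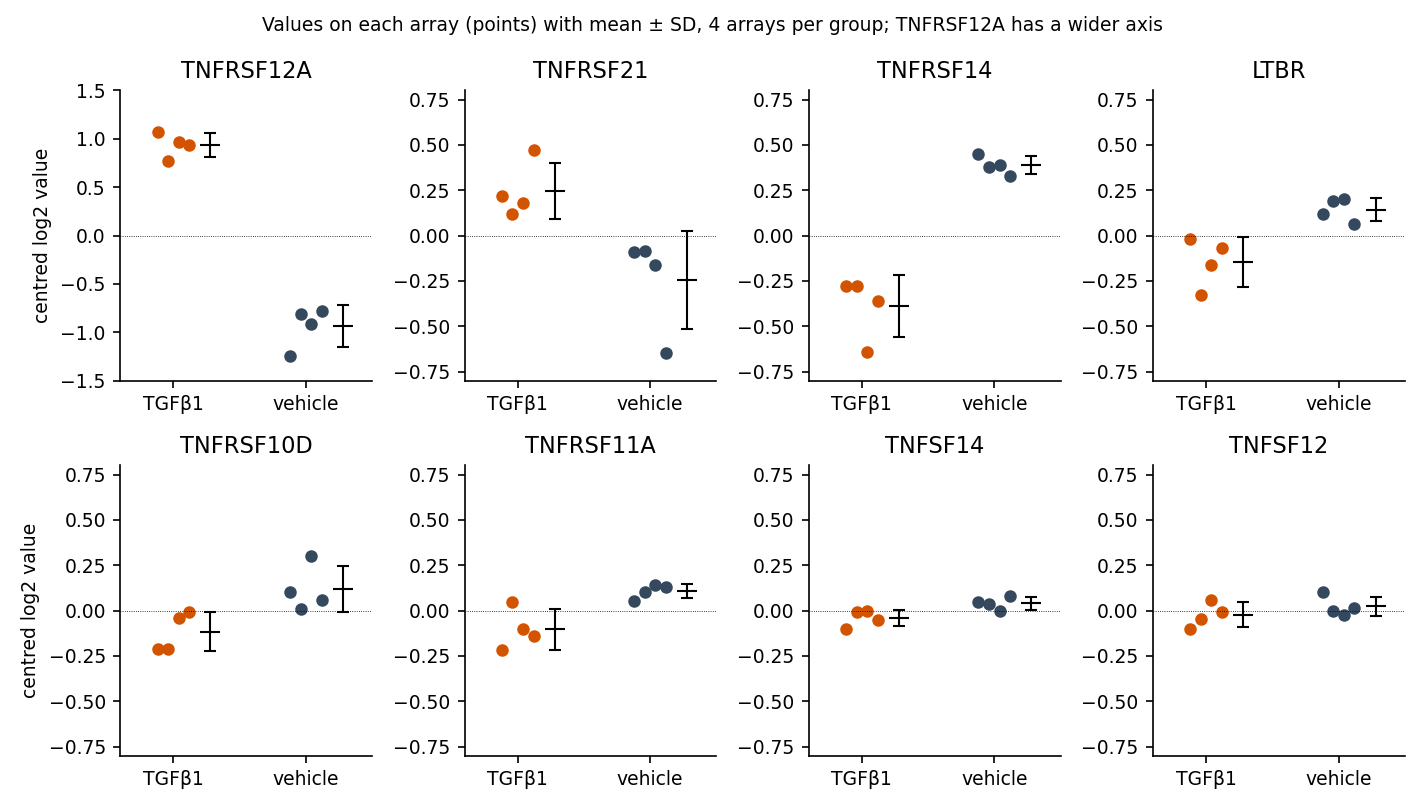
Centred log2 values (vertical axis, wider for TNFRSF12A) on the 4 TGFβ1 arrays and the 4 vehicle arrays for the 4 called receptors, the 3 uncalled members whose groups do not overlap, and TNFSF12. Points are arrays, and the bar beside them is the mean ± SD. TNFRSF12A and TNFRSF14 are separated by wide gaps, vehicle replicate 4 of TNFRSF21 lies at −0.65, below the other arrays, and TNFSF14 and TNFSF12 lie near 0 in both groups.

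The called receptors are each read by 1 probe. For TNFRSF12A, TNFRSF14 and a probe of TNFRSF19 described below, the probe sequence comes from the annotation in the study's lists of altered probes. These lists hold only probes that the study's SAM tests found altered by TGFβ1 or, in another experiment, by silencing of CITED1. The first 30 of the 50 bases are shown to identify the stretch that was measured.
TNFRSF12A probe: cagaaagggagcctcacgctggctcacaca
TNFRSF14 probe: agccaaggctggactgggttggctgcagtg
TNFRSF19 probe: ggtaatgcgtgtggctgaatgggcataacc
The annotation places them on chromosome 16 from 3012033 to 3012082, chromosome 1 from 2479265 to 2479314 and chromosome 13 from 23147852 to 23147901, and the genome build of these positions is not given. The TNFRSF14 probe is listed on the minus strand, whereas RefSeq has the TNFRSF14 gene on the plus strand. Of 812 probes on the study's lists of altered probes with a listed strand and a gene on 1 RefSeq strand, 810 have the strand of their gene. The other 2 have the opposite strand, the TNFRSF14 probe being 1 of the 2. Which strand the probe reads was not tested. TNFRSF14-AS1 is an antisense RNA that overlaps the start of TNFRSF14. The probe assigned to TNFRSF14-AS1 gave 0.023, −0.025, −0.0060 and −0.039 under TGFβ1 and −0.039, 0.13, 0.055 and −0.10 under vehicle. Those groups overlap, and the log2 change was −0.024 (95% interval −0.16 to 0.11, adjusted p = 0.93 in limma).

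Promoter sequences of 29 of the 43 members were in the RefSeq table of build GRCh38.p14. The called receptor TNFRSF12A was not among them. The promoters of TNFRSF14, LTBR and TNFRSF21 are shown because these receptors were called. They are given as the 250 bases before the annotated start, 5′ to 3′ on the strand of the gene. The 3 motifs below were searched on both strands and are shown in capitals where found, the E-box CACGTG that MITF and related factors can bind, the SMAD box CAGAC and the AP-1 site TGANTCA.
TNFRSF14, chr1:2556121-2556370, plus strand: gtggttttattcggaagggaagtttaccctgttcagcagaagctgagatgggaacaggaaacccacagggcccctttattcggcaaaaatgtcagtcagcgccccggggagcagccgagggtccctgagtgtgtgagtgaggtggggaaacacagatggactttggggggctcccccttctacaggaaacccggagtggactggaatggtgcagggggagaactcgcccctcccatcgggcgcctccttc
LTBR, chr12:6383912-6384161, plus strand: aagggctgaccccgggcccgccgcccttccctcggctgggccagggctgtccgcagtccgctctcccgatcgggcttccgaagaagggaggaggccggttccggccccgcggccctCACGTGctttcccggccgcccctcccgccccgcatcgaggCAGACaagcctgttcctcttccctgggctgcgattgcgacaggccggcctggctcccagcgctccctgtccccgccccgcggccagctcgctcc
TNFRSF21, chr6:47309906-47310155, minus strand: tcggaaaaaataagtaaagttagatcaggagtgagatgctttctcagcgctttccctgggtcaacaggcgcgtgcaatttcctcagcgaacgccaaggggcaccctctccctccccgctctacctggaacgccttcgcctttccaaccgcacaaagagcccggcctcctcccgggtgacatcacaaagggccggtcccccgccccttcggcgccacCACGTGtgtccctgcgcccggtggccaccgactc
LTBR holds 1 E-box, which begins 134 bases before the start, and 1 SMAD box, which begins 94 bases before it. TNFRSF21 holds 1 E-box, beginning 34 bases before the start. TNFRSF14 holds none of the 3, and the matches shown do not overlap each other. Among all 35116 promoters of the same length in the table, 6.34% hold the E-box, 38.0% the SMAD box and 6.57% the AP-1 site. A match describes the letters only.

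Ligands of TNFRSF14 or of LTBR were measured as well, of which LIGHT is shared by both receptors. LIGHT, encoded by TNFSF14, had −0.10, −0.0070, −0.0047 and −0.054 under TGFβ1, against 0.050, 0.037, −0.0034 and 0.083 under vehicle. The groups just fail to overlap, but the log2 change was small, −0.083 (SE 0.056, 95% interval −0.20 to 0.038, adjusted p = 0.57 in limma). It rests mostly on 1 of 3 probes, at −0.24 (adjusted p = 0.14 over all probes), while the other 2 gave −0.057 and 0.049. LTA, lymphotoxin α, which can also bind the TNF receptors, was at 0.21, 0.20, 0.047 and −0.084 under TGFβ1 and at −0.13, −0.14, −0.12 and 0.013 under vehicle. Its groups overlap through TGFβ1 replicate 4. With 0.19 (SE 0.075, adjusted p = 0.22 in limma), LTA had the highest log2 change among the ligands. LTB, lymphotoxin β, which anchors LTA at the membrane, was at 0.045 (95% interval −0.076 to 0.16). TNFRSF6B, a soluble decoy for LIGHT and FASLG, was at −0.013 (95% interval −0.14 to 0.12).

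Among the 39 members that were not called, log2 changes lay between −0.24 and 0.19. The 95% confidence interval of all 39 lay within 0.50 of 0 on the log2 scale, which is 1.41-fold, and the intervals were 0.24 to 0.49 wide. As neither level nor background is kept, this bound applies to the centred array values and not to the transcripts of a gene whose probe is dim. The SD between arrays of one group had a median over the 43 members of 0.11 under TGFβ1 and 0.085 under vehicle. Groups did not overlap in 7 members, the 4 called receptors and TNFRSF10D, TNFRSF11A and TNFSF14, where 10.3% of all genes have groups that do not overlap.

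In the RANK axis, which controls osteoclasts and is also active in some tumours, TNFRSF11A (RANK) had −0.22, 0.046, −0.10 and −0.14 under TGFβ1 and 0.054, 0.10, 0.14 and 0.13 under vehicle. All TGFβ1 arrays lay below all vehicle arrays, though replicate 2 only narrowly. The difference, −0.21 on the log2 scale (SE 0.066, adjusted p = 0.090 in limma), did not pass, and it did pass without TGFβ1 replicate 2 (−0.26, adjusted p = 0.038). The ligand TNFSF11 (RANKL), at 0.063 over 3 probes, and the secreted decoy TNFRSF11B (osteoprotegerin), at 0.0088, were not called.

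The TRAIL axis holds a ligand that can kill tumour cells, TNFSF10, a pair of death receptors and a pair of decoys. TNFSF10 itself was at −0.042 (95% interval −0.21 to 0.12). The death receptors TNFRSF10A and TNFRSF10B were at −0.038 and 0.081. TNFRSF10B differed between its 3 probes, at 0.23, −0.068 and 0.083, none of them called over all probes. The decoy TNFRSF10D, a TRAIL receptor with a truncated death domain, had −0.21, −0.21, −0.042 and −0.0093 under TGFβ1 and 0.10, 0.0077, 0.30 and 0.061 under vehicle. The groups did not overlap, and the difference of −0.24 on the log2 scale (SE 0.077, adjusted p = 0.11 in limma) did not pass. The second decoy, TNFRSF10C, was at 0.025, with TGFβ1 replicate 4 well above the other 3.

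TNF, the founding cytokine of the family, showed next to no difference, at −0.0028 (95% interval −0.15 to 0.15, adjusted p = 0.99 in limma). Its widely expressed receptor TNFRSF1A was at 0.016 and its inducible receptor TNFRSF1B at −0.090. The death receptor FAS was at −0.076 and its ligand FASLG at −0.13 (95% interval −0.33 to 0.066), which was −0.063 without vehicle replicate 4 and −0.21 without TGFβ1 replicate 1. FASLG arrays overlapped widely, from −0.24 to 0.16 under TGFβ1 and from −0.067 to 0.28 under vehicle. TNFRSF25, the death receptor of the ligand TNFSF15, was at 0.043, with an SD of 0.24 between the TGFβ1 arrays, and TNFSF15 at 0.012. None of these members was called.

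The costimulatory pairs of lymphocytes also went without a call. The log2 change was 0.020 for CD70 and 0.053 for its receptor CD27. The ligand OX40L (TNFSF4) was at −0.067 and OX40 (TNFRSF4) at −0.046, and 4-1BBL (TNFSF9) was at −0.031 with 4-1BB (TNFRSF9) at 0.040. TNFSF9 had an SD of 0.29 between the TGFβ1 arrays, the highest of the 43 members in that group, where replicate 4 was at 0.40 and the others at −0.057, −0.23 and −0.18. The CD30 pair was at 0.011 for TNFSF8 and −0.0010 for TNFRSF8, and the GITR pair at 0.058 for TNFSF18 and −0.040 for TNFRSF18. CD40, an activating receptor of antigen-presenting cells, was at 0.077, the mean of a probe at 0.20 (adjusted p = 0.32 over all probes) and a probe at −0.046.

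The B cell survival factors BAFF (TNFSF13B) and APRIL (TNFSF13) were at 0.031 and 0.052. Their receptors TNFRSF13B (TACI) and TNFRSF13C (the BAFF receptor) were both at −0.11 and TNFRSF17 (BCMA) at 0.11. The values of TNFRSF17 ran from −0.14 to 0.26 under TGFβ1 and from −0.15 to 0.074 under vehicle, so the groups overlap.

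TNFRSF19 (TROY), a receptor of neural and skin progenitor cells, was read by probes that differed from one another. Its gene value, over 4 probes, changed by −0.091 (SE 0.062, adjusted p = 0.57 in limma). The probe assigned to the transcript NM_148957 had −0.17, −0.19, −0.10 and −0.11 under TGFβ1, against 0.24, 0.22, 0.027 and 0.10 under vehicle. All TGFβ1 arrays lay below all vehicle arrays on that probe, where limma gave a log2 change of −0.29 (SE 0.077) and an adjusted p of 0.040 over all probes. The other 3 probes, assigned to NM_018647, were at −0.035, 0.044 and −0.083 and none was called. Of the 31 probes of the 13 members with several probes, it was the only 1 called. This probe was singled out after its value was seen, and it is also on the study's lists of altered probes.

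**Figure D3:**
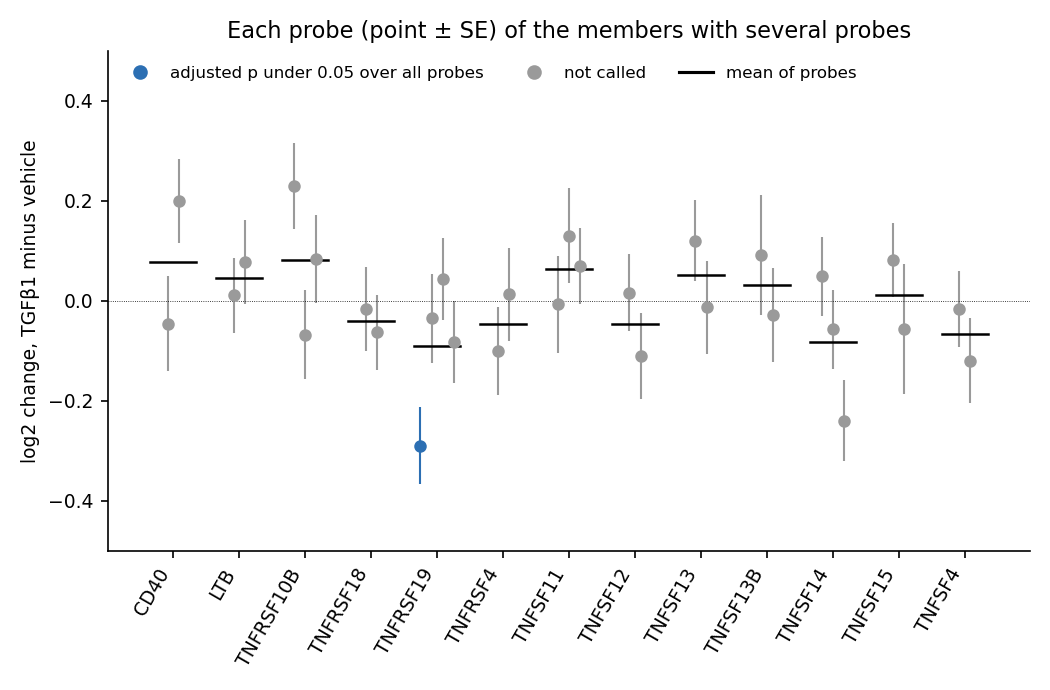
The log2 change (TGFβ1 minus vehicle, vertical axis) of each probe, as point ± SE, for the 13 members with several probes. Black bars are the means that stand for the gene. The NM_148957 probe of TNFRSF19 at −0.29 is the only one called, and in several genes, CD40, TNFRSF10B and TNFSF14 among them, the probes differ in sign.

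Of 27 measured adaptors and signalling proteins downstream of the receptors, 1 was higher and 0 were lower in limma, which is 3.70% beside 5.70% of all genes, and SAM gave the same counts. The gene was BIRC2 (cIAP1), a ubiquitin ligase that works with TRAF2 at the TNF and TWEAK receptors, at 0.18 ± 0.13 under TGFβ1 and −0.18 ± 0.10 under vehicle (SD, n = 4 each), a log2 change of 0.35 (SE 0.077, adjusted p = 0.014). Both of its probes passed, at 0.34 and 0.36. CFLAR, which blocks caspase activation at death receptors, was at −0.30 and missed the threshold (adjusted p = 0.052 in limma). FADD, TRADD and CASP8, the core of the death-inducing complex, were at 0.052, 0.011 and 0.040. The list's median change was 0.011, and 5 of its 27 genes had an unadjusted p under 0.05, as had 15.6% of all genes.

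Transcripts that TNF commonly induces through NF-κB were higher in 6 of 19 measured genes and lower in 0, beside 3.03% of all genes called higher. Like the other lists, this list was chosen with earlier results of these data known, so the comparison is not a blind one. Their median log2 change was 0.11, against −0.0013 over all genes. SAM called 5 of the 6, leaving out NFKBIA. The genes were the chemokines CCL20 at 0.94 (SE 0.078) and CCL2 at 0.68 (SE 0.078), the stress gene IER3 at 0.85 (SE 0.10), the hyaluronan-binding protein TNFAIP6 at 0.71 (SE 0.081), and the NF-κB inhibitors TNIP1 at 0.49 (SE 0.088) and NFKBIA at 0.40 (SE 0.090). CCL20 had 0.42, 0.58, 0.44 and 0.45 under TGFβ1 and −0.52, −0.54, −0.59 and −0.24 under vehicle, with a wide gap between the groups. TNFAIP6 rose on 1 of its 2 probes, at 1.49, with the other at −0.059. Several of these genes respond to other signals too. TNFAIP3 at 0.16, ICAM1 at 0.10 and SOD2 at 0.050, which TNF also induces, were not called. The share of TNF itself in these values was not tested.

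**Figure D4:**
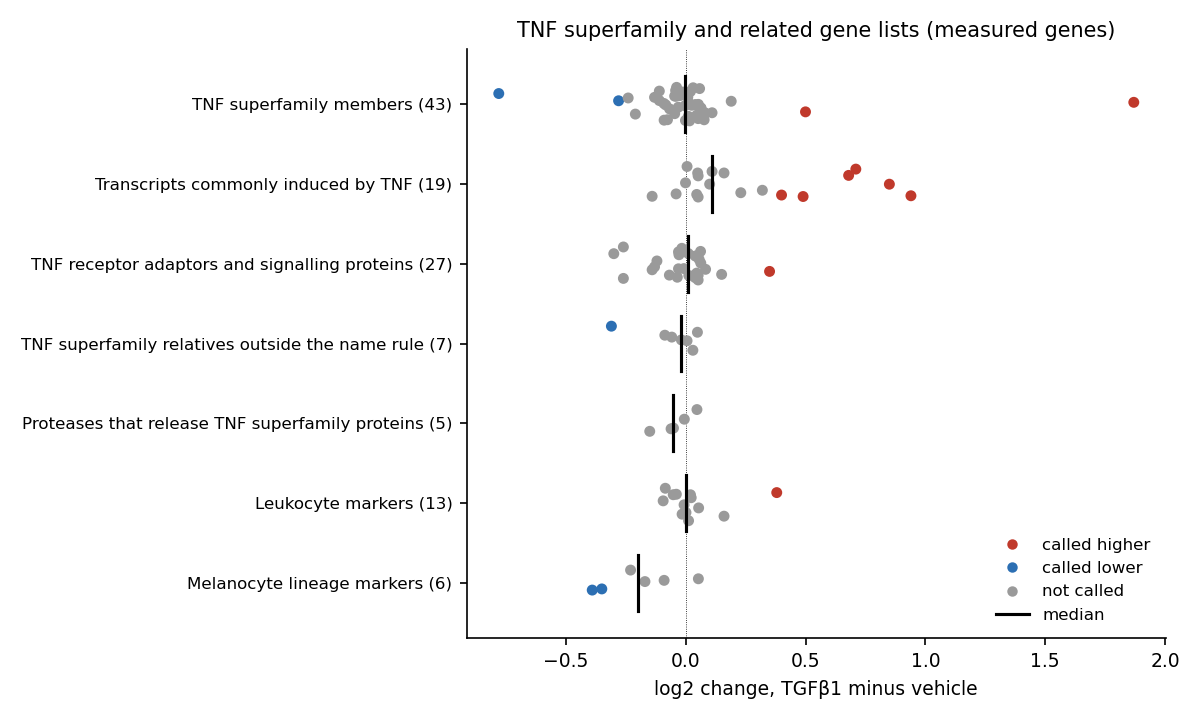
Log2 changes (TGFβ1 minus vehicle, horizontal axis) of the 43 members and of the measured genes of 6 related lists, 1 point per gene, with the list's median as a black bar. Colour marks a call in limma at an adjusted p under 0.05. The TNF-induced transcripts have 6 genes called higher, up to 0.94, whereas most members and adaptors cluster around 0.

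Leukocyte markers were followed because leukocytes make many of the ligands. Of 13 measured markers, 1 was higher, CSF1R at 0.38 (SE 0.081, adjusted p = 0.012 in limma), and 0 were lower, which is 7.69% beside 5.70% of all genes. The mean log2 value of the list ran from 0.00014 to 0.046 on the TGFβ1 arrays and from −0.043 to 0.0045 on the vehicle arrays. The centred values do not show which markers are absent, and the part of leukocyte transcripts in the members' values was not tested. Of 6 measured melanocyte lineage markers, 2 were lower, beside 2.67% of all genes called lower. These were SOX10 at −0.35 (adjusted p = 0.011 in limma) and MITF at −0.39 (adjusted p = 0.0055 in limma). MITF rests on 1 of 3 probes, at −1.0, with the others at −0.12 and −0.045 and not called, and SAM called 1 of the 2 markers. PMEL at 0.053, S100B at −0.090, TYR at −0.17 and MLANA at −0.23 were not called. The mean log2 value of this list ran from −0.15 to −0.065 on the TGFβ1 arrays and from 0.063 to 0.18 on the vehicle arrays, and its part in the receptors' values was not tested.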

How the data were processed

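RNA from 8 wells of A2058 cells, 4 treated with TGFβ1 and 4 untreated by the sample titles, where the untreated wells had control vehicle by the treatment labels, was measured on Illumina HT-12 arrays. The authors quantile normalised the signals and removed control probes in BASE, took log2 in MeV and centred by gene and sample, and the deposited log2 values are these. On the values, the mean of each of 47315 probes over the 8 arrays was 0 within 1.6e-07, and array medians lay between −0.00504 and −0.00147. Scale and direction were taken from the methods and labels. No signal is kept, so background correction and a filter on dim probes were not possible, and the slides are not given in the sources used here. The number of arrays limits the precision.

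Symbols came from GEO's platform annotation, which gave 30105 probes with 1 symbol, 8 with several, left out, and 17202 with none. Probes of one gene were averaged, which gave 20045 genes. The difference of TGFβ1 and vehicle was tested with lmFit and eBayes of limma 3.58.1 (R 4.3.3) without covariates, as a log2 change with Benjamini-Hochberg adjustment over all genes, or over all probes where stated, at 0.05. SAM was coded anew with a median of 10 false positives over 70 labellings. The code of the tests was checked on simulated, independent, normally distributed genes with known changes. Real genes on shared arrays are not independent, so this check covers the code and not the calls made here. Other alternatives were renewed quantile normalisation, array medians set to 0, array weights, a threshold of 0.01, the probe with the largest SD, a block for the replicate number, and fits without each array in turn. Called members, members whose groups do not overlap, the 3 highest and 3 lowest others and partners of called members were to be described. The members and lists were chosen with earlier results of these data known. Tables were made in Python 3.11.15 with pandas 2.3.3 and figures with matplotlib 3.10.9. The symbols TRAF2, RIPK1, BIRC3, SPATA2 and DCT of the lists were not analysed here.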

Additional observations from a re-analysis of the deposited data

Results flagged for a closer look

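Within a group of 4 arrays, 1 array stood apart by Dixon's test (a gap to its neighbour that takes up most of the group's range) in 10 of 86 groups of members. Chance gives about 1 in 20 for independent groups of normal values, whereas these groups share the same arrays. The share over all genes was not computed. TNFRSF21 was at −0.65 on vehicle replicate 4, with the other vehicle arrays from −0.16 to −0.084. It is the only flagged member among the 4 that were called. TNFRSF10B was at −0.13, TNFRSF9 at −0.15 and TNFRSF19 at −0.015 on vehicle replicate 3, each lowest of its group, while TNFSF12-TNFSF13 was highest there at 0.30. TNFRSF10C at 0.23 and TNFRSF19 at 0.083 were highest on TGFβ1 replicate 4. TNFSF4 was lowest on TGFβ1 replicate 1, at −0.20. CD70 was highest on vehicle replicate 2, at 0.13, and LTA on vehicle replicate 4, at 0.013.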

How the results depend on the processing

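TNFRSF12A and TNFRSF14 kept their direction and call in every alternative run, at 1.77 to 1.93 and −0.81 to −0.69 when 1 array was left out. Members called higher and lower numbered 1 and 1, in place of 2 and 2, by SAM, at an adjusted p under 0.01 and with the replicate block, and 1 to 2 in each direction without 1 array. TNFRSF21 and LTBR were the ones lost. With the replicate block their adjusted p was 0.064 and 0.074 in limma, and LTBR had 0.055 when the probe with the largest SD stood for each gene, a change in the other genes since LTBR has 1 probe, while TNFRSF19 was gained as lower there. Over all genes, same-numbered arrays did not deviate together (correlations from −0.040 to 0.026, and 2 of 8 arrays correlated best with their own number). This gave no sign that the numbers pair the wells. It cannot exclude a pairing, since dim probes could not be filtered out. At an adjusted p under 0.01 the adaptors and the leukocyte markers had 0 genes called higher, in place of 1 each. Adaptors called lower numbered 1 (RBCK1) with the probe of largest SD and 0 to 1 without 1 array, in place of 0. Over all genes SAM called 462 higher and 294 lower and the 0.01 threshold 360 and 257, against 608 and 535. Among the members described in full, signs turned in the uncalled TNFRSF14-AS1 (−0.062 to 0.017 without 1 array, the positive value without vehicle replicate 2) and on single probes of TNFRSF10B (−0.068), TNFSF12 (0.016) and TNFSF14 (0.049), and other members with several probes, such as CD40 and TNFSF15, also had a probe of opposite sign to their mean. The cause was not tested.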

Other observations

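Relatives of the superfamily that do not carry its symbols were measured on the same arrays. Of 7 such genes, RELL1, a membrane protein related to the receptor RELT, was the only one called. That is 14.3% beside 5.70% of all genes. It had −0.15, −0.17, −0.13 and −0.18 on the TGFβ1 arrays, against 0.14, 0.16, 0.12 and 0.21 on the vehicle arrays, with little spread within either group. Its log2 change was −0.31 (SE 0.055, adjusted p = 0.0030 in limma), on probes at −0.64, −0.24 and −0.055, of which the first alone passed over all probes. RELT was at 0.0057. NGFR, the low-affinity neurotrophin receptor of neural crest cells, was at −0.018, and the ectodysplasin ligand EDA and its receptors EDAR and EDA2R were at −0.058, 0.049 and 0.030. Of 5 measured genes of the proteases that release superfamily proteins and their cofactors, 0 were called by limma or SAM. An unadjusted p under 0.05 was found for 0 of the 5. With shares of 5.70% called and 15.6% under that p over all genes, so few genes can easily show none. ADAM17, which releases TNF from the membrane, was at −0.051, ADAM10 at 0.047, and RHBDF1, a cofactor of ADAM17, at −0.15.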
